A study of Mus musculus with 40 samples.

Results

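Bone marrow-derived macrophages (BMDMs) of WT mice were compared after 1 hr of lipopolysaccharide (LPS) and without treatment, across all expressed genes. The comparison rests on 8 of the 40 libraries of the series: 4 untreated and 4 treated, 1 pair from each of 4 mice, numbered 25, 69, 87 and 88 as in the labels. The WT mice, like the *Cpeb4* knockout mice that gave 20 of the other libraries, were adult males of a mixed C57BL/6J and 129 background. Bone marrow cells were grown for 7 days in medium conditioned by L cells, which secrete M-CSF, so these are macrophages made in culture. The labels place mice 25 and 88 in batch 1 and mice 69 and 87 in batch 2, with mice 87 and 88 from the same cage. Treated cells received LPS of E. coli 0111:B4 at 10 ng/ml for 1 hr. The genes are those whose mean regularized log (rlog) value over the 8 libraries was at least log2 of 5, which 13098 of the 27179 genes in the deposited table met, and 6395 genes of that table were at 0 in all 40 libraries.

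LPS coats Gram-negative bacteria. CD14 and MD-2 hand it to the receptor TLR4, and the adaptors of TLR4 switch on NF-kB, the MAP kinases and the interferon regulatory factors. The genes that these factors switch on without new protein synthesis are known as primary response genes. They include secreted cytokines and chemokines, transcription factors of the AP-1, EGR and NR4A families, and inhibitors that shut the same signals off again. Many of their mRNAs carry AU-rich elements (AREs) in the 3′-UTR, which proteins such as tristetraprolin (TTP, encoded by *Zfp36*) use to promote decay, while cytoplasmic polyadenylation elements (CPEs) are bound by CPEB proteins such as CPEB4.

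The rlog value is a log2 scale on which the authors moderated the values of genes with few or uneven counts, so a difference of 1 stands for 2-fold on that scale and smaller counts give smaller differences than the reads would. The moderation was visible in the untreated libraries: *Il1b* lay between 12.35 and 12.36 in all 4, and 20 of the 410 genes that rose at least 2-fold, 4.88%, had an untreated SD under 0.02, against 1.14% of the genes tested. An untreated level is therefore not read here as absence or presence of a transcript, and levels are not compared between genes. The number of reads behind each library cannot be read from these values and is not used here. No pair of libraries held identical values, and replicates correlated across genes with r of 0.992 to 0.998. The macrophage markers were measured in every library, with summed levels of 18.98 to 19.29 untreated and 19.24 to 19.49 at 1 hr. Markers of other cells were measured too. The expression filter was passed by 3 of 8 T cell, 2 of 6 B cell, 6 of 7 dendritic cell and 3 of 7 mast cell or basophil markers. *Ly6g*, *Cd3e* and *Mcpt4* stayed below it, and *Mcpt4* was at 0 in all libraries. Of 5 neutrophil markers that passed the filter, 4 were higher at 1 hr, the summed level of all 10 markers ranging from 6.21 to 7.15 untreated and from 6.74 to 7.55 at 1 hr. The 1 fibroblast marker that passed, *Pdgfrb*, was higher as well, and the fibroblast sum went from 5.63 to 5.78 untreated to 6.09 to 6.18 at 1 hr. The summed levels of T cell, B cell, dendritic cell, mast cell and erythroid markers overlapped between the groups. In untreated libraries the T cell sum was 9.34 to 10.04 and the dendritic cell sum 11.59 to 12.02. The part of these cells in the results was not tested.

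An hour of LPS changed most of the measured genes by small amounts and a smaller set by large ones. In limma with the mouse as a block and Benjamini-Hochberg adjustment over all genes tested, 3854 genes were higher at an adjusted p under 0.05 (29.4% of those tested) and 3215 were lower (24.5%). At least 2-fold on the rlog scale, 410 genes were higher (3.13%) and 198 lower (1.51%), and all 608 moved the same way in all 4 mice. The 4 treated libraries did not overlap the 4 untreated ones in 605 of these 608 genes, against 4102 genes in all (31.3%). The 608 genes were chosen from these same 8 libraries by size and spread of the change. That choice nearly fixes both counts, so they are no further support. On the rlog scale the rises reached further than the falls: 125 genes rose by at least 2 and 12 fell by as much, while 39 rose by at least 3 and no gene fell by that amount. The scale makes differences of genes with few counts smaller. With a filter of mean rlog of at least 5, 327 genes were at least 2-fold higher and 122 lower. The part of the scale in the reach of the falls was not tested. The median over all genes tested was a difference of 0.023, the median absolute difference was 0.157 and the median standard error 0.048. The direction of the small changes depended on the scaling: 54.5% of all calls were higher in the values as deposited and 38.8% after quantile normalization of the 8 libraries, whereas 410 genes were at least 2-fold higher and 198 lower as deposited and 394 and 162 after quantile normalization. Without the mouse as a block 3844 genes were called in all in place of 7069, and 607 in place of 608 at least 2-fold.

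**Figure D1:**
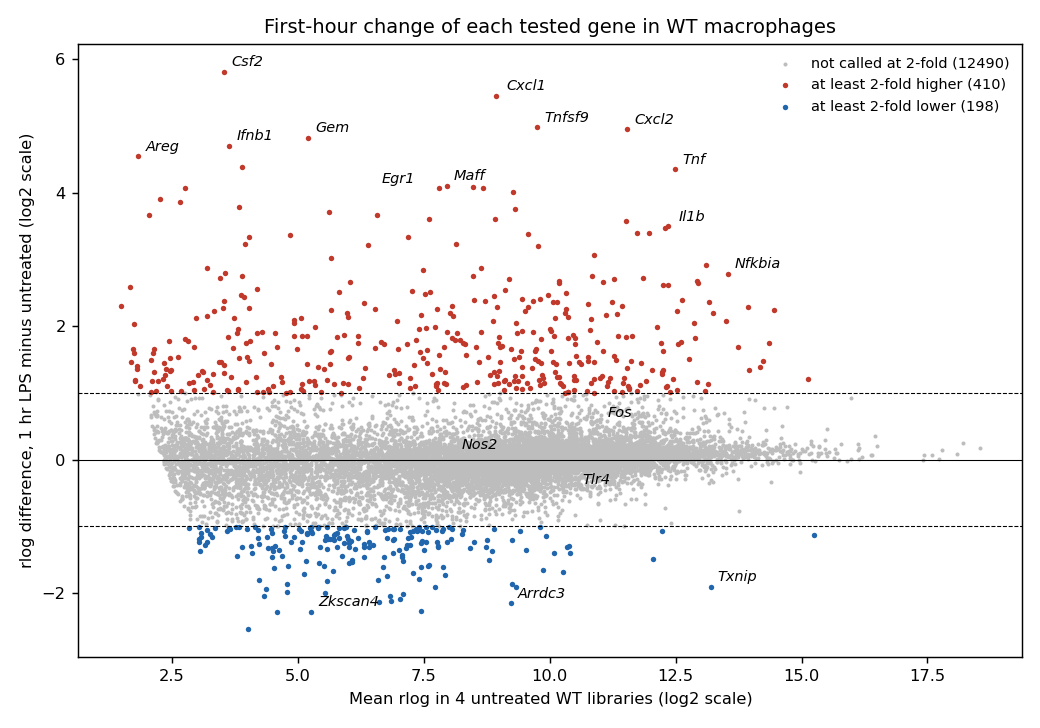
Each point is 1 of 13098 genes, with its mean rlog in the 4 untreated WT libraries on the x axis and its rlog difference, 1 hr LPS minus untreated, on the y axis; dashed lines mark a 2-fold difference. The 410 genes at least 2-fold higher reach 5.81 (*Csf2*) and are found at low and high untreated levels, and the falls of genes with a curated symbol reach −2.28 (*Zkscan4*).

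The largest rises were in secreted signals. *Csf2*, which encodes the growth factor GM-CSF (chromosome 11, 54247270 to 54249899 of mm10), was at 3.54, 3.54, 3.56 and 3.52 in untreated cells of mice 25, 69, 87 and 88 and at 9.32, 8.88, 9.74 and 9.46 after LPS. The change was 5.81 (standard error, SE, of 0.12, limma adjusted p = 5.5e-11), or 56.2-fold on the rlog scale, and the lowest treated library lay more than 5 above the highest untreated one. *Cxcl1*, whose product draws neutrophils through CXCR2, moved from 8.97, 8.89, 8.97 and 8.91 to 14.49, 13.96, 14.67 and 14.44, a change of 5.45 (SE 0.079, limma adjusted p = 5.8e-12). Its neighbour *Cxcl2*, a chemokine for the same receptor, moved from 11.50, 11.62, 11.54 and 11.49 to 16.38, 16.50, 16.60 and 16.49, a change of 4.95 (SE 0.036). In both chemokine genes the spread between mice was small beside the rise, and in *Cxcl1* mouse 69 was the lowest of the treated libraries. *Tnf*, the prototypical inflammatory cytokine, moved from 12.48, 12.53, 12.49 and 12.45 to 16.81, 16.82, 16.90 and 16.83, a change of 4.36 (SE 0.031, limma adjusted p = 6.0e-14). The other genes among the 10 largest rises were *Tnfsf9*, the ligand of 4-1BB, at 4.98, the small GTPase gene *Gem* at 4.82, *Ifnb1* (interferon beta) at 4.70, the EGF receptor ligand *Areg* at 4.55, the transmembrane protein gene *Tmem200b* at 4.38 and the transcription factor gene *Maff* at 4.10.

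The promoters of 8 early genes are shown, picked because they held a match to a motif of NF-kB, CREB or serum response factor. Those of *Tnf*, *Maff*, *Junb* and *Il1b* held no match to any motif searched. Each is the stretch from 250 bases before to 50 bases after the gene's annotated start, from RefSeq on GRCm38.p6, and capitals mark the letters of a motif. The motifs, searched on both strands, were GGNNTTTCC for NF-kB, TGACGTCA for a cyclic AMP response element, TGANTCA for AP-1, GAAANNGAA for interferon regulatory factors and the CArG box of serum response factor, and no matches overlapped in these 8 promoters. *Cxcl1* (chr5:90890995-90891294, plus strand) and *Cxcl2* (chr5:90903649-90903948, plus strand) each held 2 NF-kB matches, starting 89 and 70 bases before the start in *Cxcl1* and 96 and 77 bases in *Cxcl2*, and *Cxcl3* (chr5:90785851-90786150, plus strand) held 1 at 72 bases.
Cxcl1: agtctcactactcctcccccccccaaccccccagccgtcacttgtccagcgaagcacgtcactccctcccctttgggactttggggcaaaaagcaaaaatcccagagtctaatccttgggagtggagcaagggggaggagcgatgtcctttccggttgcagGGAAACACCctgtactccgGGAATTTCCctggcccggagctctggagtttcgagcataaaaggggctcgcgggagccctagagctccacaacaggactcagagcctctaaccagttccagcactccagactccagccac
Cxcl2: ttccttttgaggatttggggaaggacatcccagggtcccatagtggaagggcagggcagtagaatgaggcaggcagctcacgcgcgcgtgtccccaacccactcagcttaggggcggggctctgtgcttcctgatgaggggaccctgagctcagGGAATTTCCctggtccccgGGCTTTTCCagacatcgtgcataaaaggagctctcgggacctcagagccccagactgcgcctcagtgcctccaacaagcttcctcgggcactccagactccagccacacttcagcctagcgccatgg
Cxcl3: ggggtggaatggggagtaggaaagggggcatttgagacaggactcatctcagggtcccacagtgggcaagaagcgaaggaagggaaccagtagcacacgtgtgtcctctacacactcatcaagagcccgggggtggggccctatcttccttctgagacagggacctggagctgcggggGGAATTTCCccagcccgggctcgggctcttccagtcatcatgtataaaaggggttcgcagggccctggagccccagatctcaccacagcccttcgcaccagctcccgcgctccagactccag

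The NF-kB inhibitor genes *Nfkbia* (chr12:55492598-55492897, minus strand) and *Tnfaip3* (chr10:19015361-19015660, minus strand, the first of 2 listed starts) each held 2 NF-kB matches as well. Those of *Tnfaip3* lay 24 and 12 bases before the start, with an AP-1 match at 136 bases, and those of *Nfkbia* 178 and 29 bases before it, with a match to the interferon regulatory factor motif at 53 bases.
Nfkbia: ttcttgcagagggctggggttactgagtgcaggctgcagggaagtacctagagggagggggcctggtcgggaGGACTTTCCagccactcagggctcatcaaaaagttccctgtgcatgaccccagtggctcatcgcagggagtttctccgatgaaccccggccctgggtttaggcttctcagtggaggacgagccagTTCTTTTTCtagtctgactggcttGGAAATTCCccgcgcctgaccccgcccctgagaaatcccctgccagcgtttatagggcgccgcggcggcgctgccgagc
Tnfaip3: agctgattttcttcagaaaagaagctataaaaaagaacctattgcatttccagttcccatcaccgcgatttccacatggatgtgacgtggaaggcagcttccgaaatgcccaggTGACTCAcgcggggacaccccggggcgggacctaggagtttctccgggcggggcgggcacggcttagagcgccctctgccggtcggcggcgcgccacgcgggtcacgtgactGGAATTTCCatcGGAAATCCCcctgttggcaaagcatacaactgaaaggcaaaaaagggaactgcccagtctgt

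*Areg* (chr5:91139349-91139648, plus strand) and *Dusp1* (chr17:26508423-26508722, minus strand) held a cyclic AMP response element instead, at 61 and 143 bases before the start, and *Zfp36* (chr7:28379179-28379478, minus strand) a CArG box at 58 bases.
Areg: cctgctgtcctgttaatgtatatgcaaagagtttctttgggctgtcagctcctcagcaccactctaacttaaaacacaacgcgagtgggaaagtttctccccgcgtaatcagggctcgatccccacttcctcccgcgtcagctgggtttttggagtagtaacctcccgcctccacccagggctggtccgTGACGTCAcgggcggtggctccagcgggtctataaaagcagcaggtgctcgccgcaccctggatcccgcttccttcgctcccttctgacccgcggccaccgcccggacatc
Dusp1: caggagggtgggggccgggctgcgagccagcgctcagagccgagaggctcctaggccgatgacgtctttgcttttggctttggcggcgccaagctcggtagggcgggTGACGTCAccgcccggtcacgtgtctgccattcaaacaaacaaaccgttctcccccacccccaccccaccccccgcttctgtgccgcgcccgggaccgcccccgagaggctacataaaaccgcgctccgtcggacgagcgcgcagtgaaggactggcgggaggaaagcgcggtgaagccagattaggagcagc
Zfp36: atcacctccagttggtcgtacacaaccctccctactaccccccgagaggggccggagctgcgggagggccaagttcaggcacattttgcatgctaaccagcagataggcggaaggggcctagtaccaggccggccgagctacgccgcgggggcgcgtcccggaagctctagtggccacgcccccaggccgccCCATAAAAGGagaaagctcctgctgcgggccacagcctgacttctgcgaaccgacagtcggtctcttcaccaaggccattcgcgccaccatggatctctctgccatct

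Over the 10126 tested genes with a promoter in the RefSeq table, the NF-kB motif was found in 6.14%, the cyclic AMP response element in 3.27%, the AP-1 motif in 5.19%, the interferon regulatory factor motif in 7.36% and the CArG box in 1.27%. The table matched 306 of the 410 genes that rose at least 2-fold, 74.6%, which is below the 80% set for comparing sets of genes, so a comparison of motif shares between rising and other genes is void.

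Of 29 cytokine and growth factor genes that passed the filter, of 30 listed, 28 were higher, 17 of them at least 2-fold, and none was lower, with a median difference of 1.91 against 0.023 over all genes. For this and the later lists, the shares over all genes tested were 29.4% higher and 24.5% lower. At least 2-fold, they were 3.13% and 1.51%. The lists and their members were chosen with earlier results of these data known, which can favour the direction of a list. *Il1b* rose to 15.75, 15.90, 15.92 and 15.84 (difference 3.50, SE 0.033, limma adjusted p = 3.3e-13), and its relative *Il1a* by 3.23. The p40 subunit gene shared by IL-12 and IL-23, *Il12b*, rose by 3.33, and the p19 subunit gene *Il23a* by 4.07, while *Il12a* was not called at 0.34. *Il10*, the main anti-inflammatory cytokine gene of macrophages, moved from 8.94, 8.76, 8.97 and 8.94 to 11.60, 11.58, 11.15 and 11.11, a change of 2.46 (SE 0.097, limma adjusted p = 1.0e-08), so pro- and anti-inflammatory cytokine mRNAs rose within the same hour. *Ifnb1* varied more between mice, at 8.09, 7.73, 8.74 and 8.80 after LPS from 3.61, 3.71, 3.63 and 3.59 (SE 0.17). *Il15* and *Il18*, which encode cytokines that act on lymphocytes, rose by 0.25 and 0.24. After quantile normalization 26 of the cytokine genes were higher and 2 lower, the median being 1.98.

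Of 20 chemokine genes tested, of 22 listed, 19 were higher, 11 at least 2-fold, with a median of 1.52. After *Cxcl1* and *Cxcl2* came *Cxcl3* at 2.84 and the chemokine genes *Ccl4* and *Ccl3* at 2.61 and 2.40, whose RefSeq spans overlap, so that their reads may be shared. The monocyte attractants *Ccl2*, *Ccl12* and *Ccl7* rose by 2.31, 2.25 and 1.94. *Cxcl10*, a ligand of CXCR3, rose by 2.05, whereas the other CXCR3 ligands *Cxcl11* and *Cxcl9* rose by 1.15 and 0.63.

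Transcription factor genes of the immediate early kind rose as well. Of 15 EGR, NR4A and IER genes tested, 14 were higher, 11 at least 2-fold, with a median of 1.77. *Egr1*, a zinc finger factor, moved from 7.79, 7.90, 7.79 and 7.75 to 11.99, 11.88, 11.85 and 11.78, a change of 4.07 (SE 0.043, limma adjusted p = 6.2e-13). The orphan nuclear receptor gene *Nr4a1* reached 11.25, 11.85, 10.81 and 10.91 from 7.63, 7.82, 7.52 and 7.42, highest in mouse 69 at both times. *Csrnp1*, *Egr3*, *Ier3* and *Egr2* rose by 4.02, 2.80, 2.41 and 2.36. The exception was *Ier5l*, which fell by 1.90 (SE 0.076, limma adjusted p = 1.2e-08) and was 1 of the 10 largest falls.

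Within AP-1, the members differed widely in size of change. Of 16 AP-1 and ATF genes 14 were higher, 6 at least 2-fold, and 1, *Batf3*, was lower at −0.24. The small Maf gene *Maff* moved from 7.95, 8.00, 7.94 and 7.92 to 12.03, 12.07, 12.02 and 12.11. *Fosb*, *Junb*, *Jdp2* and *Fosl1* rose by 3.23, 2.65, 2.23 and 1.78. The founding members were little above their untreated level at 1 hr. *Fos* was at 11.09, 11.32, 10.85 and 10.78 untreated and at 11.70, 11.90, 11.34 and 11.35 at 1 hr, a change of 0.56 (SE 0.032, limma adjusted p = 1.8e-07). The 2 groups followed each other mouse by mouse, and the highest untreated library nearly reached the lowest treated ones. *Jun* rose by 0.80 and *Atf3*, a repressor of inflammatory genes, by 0.63. No library was taken between the untreated and the 1 hr ones, so an earlier rise and fall of these genes would not be seen. By 3 hr the mean of *Fos* in WT cells was 9.54 ± 0.082 (SD, n = 4), under its untreated mean of 11.01 ± 0.25, and *Fosb* was at 3.37 against 3.95 untreated.

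Among 25 other early regulators of transcription 20 were higher, 9 at least 2-fold, and 2 were lower. *Kdm6b*, which encodes the H3K27 demethylase JMJD3, led at 4.09, with 12.66, 12.88, 12.35 and 12.41 at 1 hr against 8.49, 8.56, 8.40 and 8.50 untreated. *Cebpb*, *Ets2* and *Myc* rose by 1.73, 1.63 and 1.39. The myeloid factor genes *Cebpa* and *Klf4* fell by 0.59 and 0.38.

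**Figure D2:**
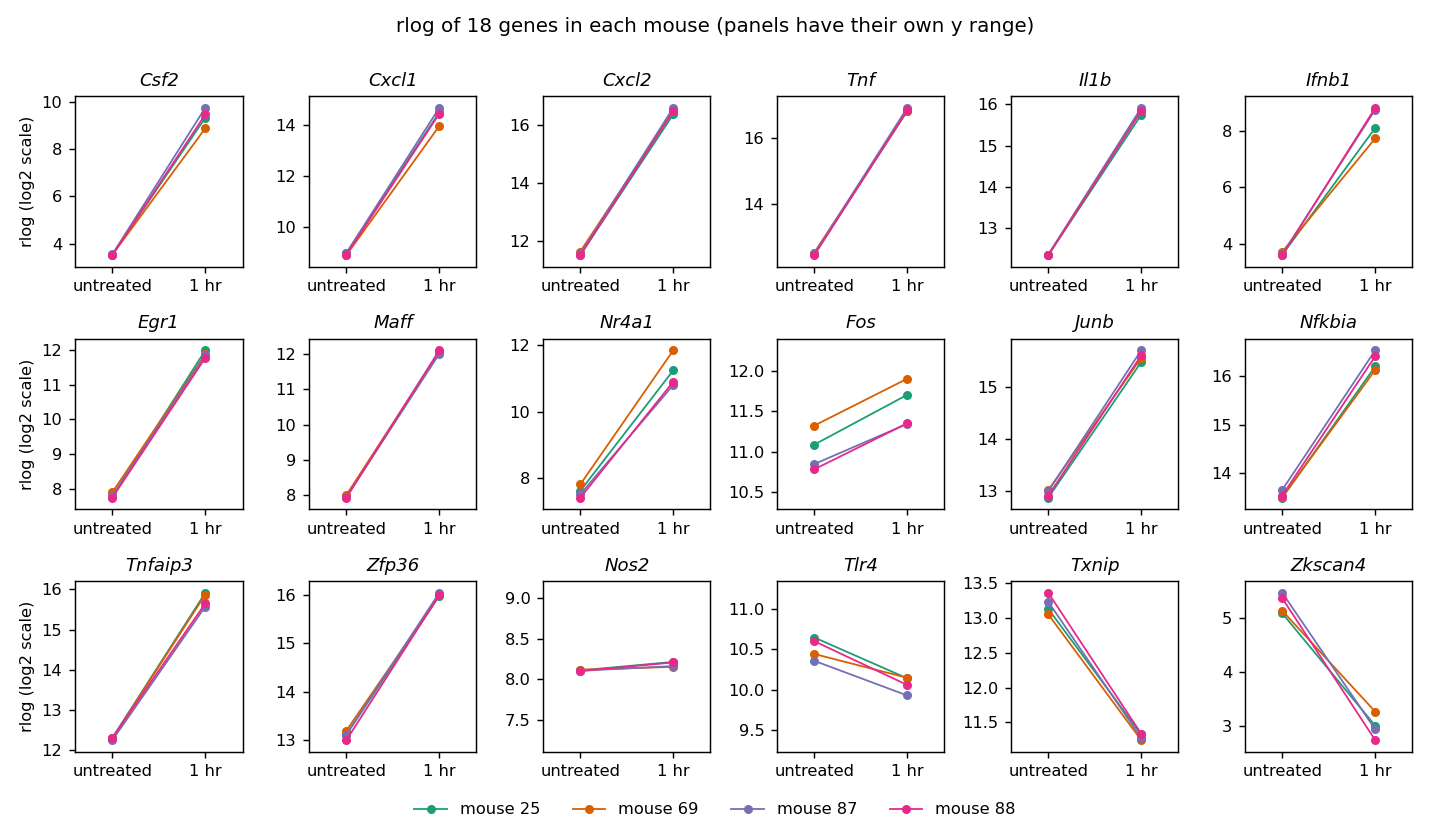
rlog of 18 genes (y axis, a range of its own in each panel) in untreated cells and after 1 hr of LPS (x axis), with 1 line for each of the 4 WT mice. The lines of *Tnf*, *Maff* and *Zfp36* nearly coincide, those of *Ifnb1* and *Nr4a1* fan out at 1 hr, *Nos2* is flat, and *Tlr4*, *Txnip* and *Zkscan4* fall in every mouse.

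Of 25 NF-kB subunits, inhibitors and A20 partners 21 were higher, 14 at least 2-fold, with a median of 1.16. *Tnfaip3*, which encodes the ubiquitin-editing enzyme A20, moved from 12.30, 12.29, 12.24 and 12.30 to 15.92, 15.87, 15.57 and 15.65, a change of 3.47 (SE 0.049, limma adjusted p = 5.2e-12). *Nfkbia*, the gene of the inhibitor IkBa, moved from 13.48, 13.49, 13.64 and 13.53 to 16.21, 16.14, 16.54 and 16.42, and *Nfkbiz*, the gene of the nuclear IkB protein needed for secondary genes such as *Il6*, from 11.98, 12.01, 11.89 and 11.97 to 15.44, 15.46, 15.21 and 15.31. Thus *Nfkbia* was higher in mice 87 and 88, and *Tnfaip3* and *Nfkbiz* in mice 25 and 69. Of the DNA-binding subunits *Rel* rose by 2.31, *Relb* by 1.23, *Nfkb2* by 1.10, *Rela* by 0.89 and *Nfkb1* by 0.45. The IkB kinase subunit genes *Ikbkb* and *Chuk* rose by 0.25 and 0.11, *Ikbkg* was not called at −0.06, and the deubiquitinase gene *Otud1* fell by 0.37.

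Phosphatases and other brakes on MAP kinase signalling formed a further group. Of 15 genes tested, of 17 listed, 12 were higher, 8 at least 2-fold, and 3 were lower. *Dusp2*, *Dusp5*, *Dusp8* and *Dusp1*, phosphatases of ERK, JNK and p38, rose by 3.76, 3.67, 3.21 and 2.75, as did the EGF receptor inhibitor gene *Errfi1* by 3.61 and *Spry1* by 2.87. *Dusp6*, which encodes the cytoplasmic ERK phosphatase, went the other way, from 10.13, 10.11, 10.11 and 10.01 to 8.74, 8.80, 8.62 and 8.60 (difference −1.40, SE 0.041, limma adjusted p = 9.7e-10). *Spry2* and *Dusp7* fell by 0.22 and 0.32.

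Of 24 SOCS genes and other regulators of signalling 20 were higher, 12 at least 2-fold, and 3 were lower. *Socs3*, the brake on gp130 cytokine receptors, rose by 3.07, and *Rasgef1b*, the eIF2a phosphatase subunit gene *Ppp1r15a*, *Pim1* and *Gadd45b* by 3.39, 3.37, 2.71 and 2.66. *Socs1* rose by 0.57. *Rgs2*, a regulator of G protein signalling, fell by 1.48.

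Of 27 regulators of mRNA decay and polyadenylation 16 were higher, 3 at least 2-fold, and 2 were lower, with a median of 0.13, against 13 higher and 7 lower after quantile normalization. *Zfp36* moved from 13.11, 13.19, 13.11 and 12.99 to 15.99, 16.00, 16.05 and 16.00, a change of 2.91 (SE 0.036, limma adjusted p = 2.1e-12), with treated libraries that nearly coincided. Its relatives *Zfp36l1* and *Zfp36l2* differed by 0.69 and −0.21. The regnase genes *Zc3h12c* and *Zc3h12a* rose by 2.38 and 1.82, and *Zc3h12d* fell by 0.39. *Cpeb4* was at 8.13, 7.88, 7.03 and 7.81 untreated and at 9.35, 9.46, 7.68 and 8.08 after LPS, a change of 0.93 (SE 0.17, limma adjusted p = 8.9e-04). It rose in all 4 mice, by 1.22, 1.58, 0.66 and 0.27, but the treated libraries of mice 87 and 88 lay below the untreated library of mouse 25, so the groups overlapped. *Cpeb2* and *Cpeb3* rose by 0.44 and 0.40, and *Cpeb1* was not called at −0.12.

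The receptor side of the pathway moved less. Of 37 genes of the TLR4 complex, its adaptors and kinases, 21 were higher, 4 at least 2-fold, and 8 were lower, with a median of 0.13. The share lower was near the 24.5% over all genes tested. After quantile normalization 16 were higher and 14 lower. *Tlr4* itself fell, from 10.64, 10.44, 10.36 and 10.60 to 10.14, 10.15, 9.93 and 10.06 (difference −0.44, SE 0.043, limma adjusted p = 1.4e-05), as did the adaptor gene *Tirap*, by 0.65, and *Tab1*, by 0.37. The co-receptor gene *Cd14* rose from 15.06, 15.16, 15.21 and 15.06 to 16.31, 16.34, 16.36 and 16.34, and *Tlr2*, the kinase genes *Ripk2* and *Irak2*, and *Myd88* rose by 1.75, 1.89, 1.22 and 0.66. The kinase genes *Irak1* and *Irak4* and the adaptor gene *Ticam2* were not called.

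Interferon-stimulated genes had barely moved at 1 hr, although *Ifnb1* had. Of 39 genes tested 21 were higher, 3 at least 2-fold (*Ifnb1*, *Irf1* and *Gbp5*), 5 were lower and 13 were not called, with a median of 0.12, which turned to −0.02 with 14 higher and 17 lower after quantile normalization. *Irf1* rose by 2.62. *Ifit1* moved from 11.83, 11.71, 11.96 and 12.03 to 12.24, 12.04, 12.39 and 12.42, a change of 0.39 (SE 0.029), and *Isg15* rose by 0.74. *Ifit2*, *Ifit3*, *Mx1*, *Irf7* and *Usp18* were not called, and *Stat2*, *Irf2* and *Irf8* fell by 0.37, 0.23 and 0.18. In WT cells *Ifit1* stood at 15.71 ± 0.13 (SD, n = 4) at 3 hr and *Gbp5* at 15.02 at 3 hr and 15.31 at 6 hr, against 12.36 at 1 hr.

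The list of genes known for the later phase held both kinds. Of 30 genes 24 were higher, 9 at least 2-fold, and 1, *Arg1*, was lower at −0.33. *Ptgs2*, the gene of cyclooxygenase-2, rose by 2.33, the itaconate enzyme gene *Acod1* by 2.20, *Arg2* by 1.99 and *Il6* by 1.98. *Nos2*, the gene of inducible nitric oxide synthase, was at 8.11, 8.12, 8.10 and 8.10 untreated and at 8.21, 8.15, 8.16 and 8.21 at 1 hr, a change of 0.08 (SE 0.046, limma adjusted p = 0.19), and stood at 11.77 ± 0.088 (SD, n = 4) at 3 hr and 14.09 ± 0.28 at 6 hr. The 1 hr mean of *Il6*, 9.71 ± 0.16 (SD, n = 4), was followed by 12.32 ± 0.19 at 3 hr and 12.46 ± 0.22 at 6 hr, so the 1 hr value of this cytokine was an early point on its course.

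Levels at the later times set the first hour in its course. The means at 3, 6 and 9 hr come from the same mice and use the same untreated libraries, so they are given as levels only. Of the 410 genes at least 2-fold higher at 1 hr, 190 (46.3%) had their highest WT mean at 1 hr, whereas 118 peaked at 3 hr, 93 at 6 hr and 9 at 9 hr, while over all 13098 genes tested 2773 (21.2%) had it at 1 hr. The selection for a high value at 1 hr favours that time. *Csf2* dropped from a mean of 9.35 ± 0.36 (SD, n = 4) to 6.41 ± 0.28 by 3 hr and 4.70 ± 0.35 by 6 hr. *Egr1* was at 7.74 ± 0.12 at 3 hr, beside 7.81 ± 0.066 untreated, and so had returned by then. *Tnf* declined slowly, with 16.84 ± 0.043 at 1 hr, then 15.87 ± 0.037, 15.46 ± 0.039 and 14.30 ± 0.2 at 3, 6 and 9 hr, and *Il1b* stayed between 15.45 and 16.19 from 1 to 9 hr.

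Of 29 surface receptor and adhesion genes that were listed because LPS is known to induce them, 26 were higher, 14 at least 2-fold, with a median of 0.91, a direction that the choice of the list favours. The oxidized LDL receptor gene *Olr1* rose by 3.71, the maturation marker gene *Cd83* by 3.58, the chemerin-binding receptor gene *Ccrl2* by 3.21, and *Icam1* and *Vcam1*, which hold leukocyte integrins, by 2.67 and 2.51. The co-stimulatory genes *Cd40*, *Cd80* and *Cd86* rose by 2.37, 0.47 and 0.40. *Ptger2*, a prostaglandin E2 receptor gene, fell by 0.34, and *Il4ra* was not called at −0.02.

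Survival and death genes were mostly higher where called. Of 26 genes 15 were higher, 10 at least 2-fold, and 4 were lower, a smaller share than the 24.5% lower over all genes tested. The anti-apoptotic *Bcl2a1d* and *Bcl2a1b* rose by 2.49 and 2.14, with the reservation that the *Bcl2a1* copies are nearly identical and their reads can be split between them, *Cflar*, the gene of the caspase-8 inhibitor cFLIP, by 1.99, and *Mcl1* by 1.39. The pro-apoptotic BH3-only gene *Bcl2l11* (Bim) rose too, from 11.73, 11.64, 11.53 and 11.64 to 13.66, 13.70, 13.26 and 13.37, whereas another BH3-only gene, *Bmf*, fell from 9.31, 9.11, 9.24 and 9.32 to 7.46, 7.36, 7.43 and 7.30. The 2 differences were of the same size, 1.86 and −1.86, and both groups were separated in all 4 mice. *Bid*, *Bbc3* and *Bak1* fell by 0.31, 0.24 and 0.08.

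Genes of macrophage identity mostly changed little. Of 31 genes 12 were higher, 1 at least 2-fold, 9 were lower and 10 were not called, with a median of 0.024. Over all genes tested 29.4% were higher and 24.5% lower. *Tfec* rose by 1.82. *Csf1r*, the M-CSF receptor gene, was not called at 0.11 (SE 0.043, limma adjusted p = 0.060) and lower by 0.38 after quantile normalization, with *Adgre1*, *Cd68*, *Mrc1* and *Cx3cr1* not called either. The scavenger receptor gene *Cd163* and the transcription factor gene *Maf* fell by 0.46 and 0.23. After quantile normalization 22 of the 31 genes were lower and 7 higher, so the balance of these small changes rests on the scaling.

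**Figure D3:**
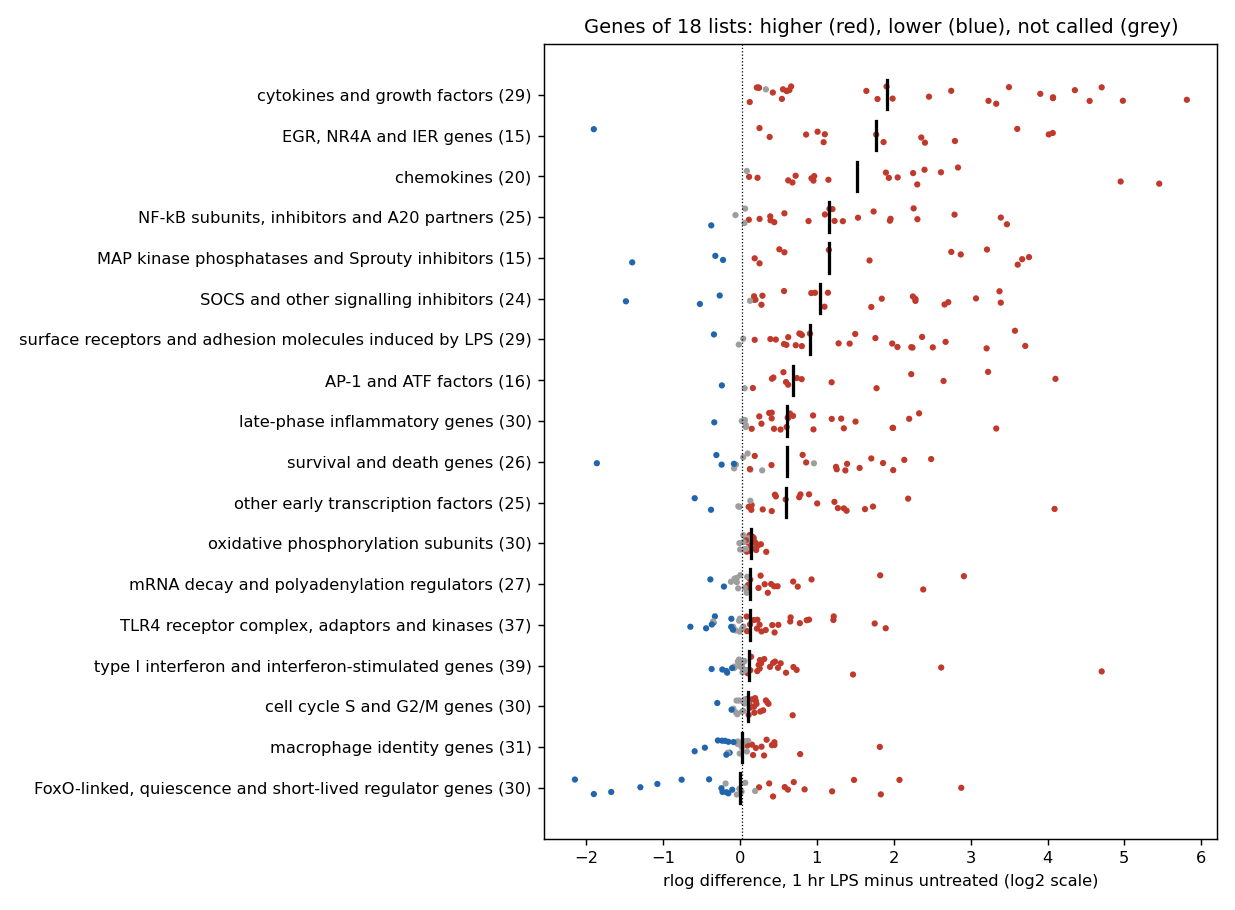
rlog difference, 1 hr LPS minus untreated (x axis), of the genes of 18 lists (y axis, with the number tested); points are genes, coloured by their call, the black bars are the list medians and the dotted line is the median of all genes, 0.023. Cytokines, the EGR, NR4A and IER genes and chemokines have the highest medians (1.91, 1.77 and 1.52), and the FoxO-linked list spans both directions, from −2.15 to 2.88.

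The falls included regulators of metabolism and growth. *Txnip*, which encodes the glucose uptake inhibitor TXNIP, moved from 13.13, 13.05, 13.23 and 13.36 to 11.33, 11.24, 11.27 and 11.34, a change of −1.90 (SE 0.041, limma adjusted p = 8.5e-11). Its alpha-arrestin relative *Arrdc3* moved from 9.34, 9.09, 9.22 and 9.24 to 7.21, 7.25, 6.86 and 6.99, a change of −2.15 (SE 0.076). Both fell in every mouse with a wide gap between the groups. *Arrdc3* fell further, to 5.82 ± 0.13 (SD, n = 4) at 3 hr, while *Txnip* was at 12.18 ± 0.032 (SD, n = 4) by 6 hr, above its 1 hr mean. Of the 30 genes of the FoxO-linked, quiescence and short-lived regulator list 12 were higher and 12 lower, 5 of each at least 2-fold: *Hhex*, *Tsc22d3* (the glucocorticoid-induced gene of GILZ) and *Sesn1* fell by 1.68, 1.30 and 1.08, and the inhibitor of DNA binding genes *Id3* and *Id2* and the cell cycle inhibitor gene *Cdkn1a* rose by 2.88, 1.83 and 2.07. *Arrdc4* rose by 0.25, unlike *Arrdc3*.

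The largest fall by the rule used to name genes was *Zkscan4*, a zinc finger gene with a KRAB domain, from 5.09, 5.14, 5.47 and 5.37 to 3.01, 3.27, 2.94 and 2.74 (difference −2.28, SE 0.15, limma adjusted p = 5.8e-07). *Zfp273* and *Zfp791*, of the same broad class, fell by 2.00 and 1.94 and the vesicle SNARE gene *Vamp1* by 2.04, and 3 genes of the 10 had no symbol. The class was then counted as a whole, a choice made after these values were seen. Of 332 tested genes named Zfp with a number, leaving out the *Zfp36* family, 236 were lower (71.1%), 59 of them at least 2-fold (17.8%), and 42 were higher, with a median of −0.45, against 24.5% lower and 1.51% at least 2-fold lower over all genes. Of 59 *Zkscan*, *Zscan* and *Zbtb* genes 37 were lower, 8 at least 2-fold. The Zfp median was between −0.48 and −0.42 in each WT mouse and stayed at −0.42 after quantile normalization. Lower Zfp genes were found on every chromosome that held a tested one, but unevenly. Chromosomes 7, 17 and 13 held the most, with 67 of 85, 32 of 43 and 25 of 33 lower, and 21, 10 and 7 at least 2-fold lower. On the other chromosomes the share lower ran from 1 of 5 on chromosome 16 to 14 of 17 on chromosome 2. Many Zfp genes are close copies of each other, and reads shared between copies cannot be told apart here.

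Housekeeping groups moved by little. Of 30 cell cycle genes 16 were higher, none at least 2-fold, and 2 were lower, against 7 and 9 after quantile normalization, with *Mki67* the furthest up at 0.68. Of 30 oxidative phosphorylation subunit genes 21 were higher and none lower, with a median of 0.14 and a range from −0.01 to 0.34, but after quantile normalization 4 were higher and 8 lower with a median of −0.04, so the direction of this list depends on the scaling. Of 78 cytosolic ribosomal protein genes 63 were higher and 1 lower as deposited, with a median of 0.20, and 29 were higher and 6 lower after quantile normalization, with a median of 0.10. The ribosomal protein median varied between the WT mice, at 0.19, 0.066, 0.22 and 0.33 in mice 25, 69, 87 and 88, and many of these genes have processed copies that can share their reads.

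The 4 mice responded alike, with small differences that recurred among the rising genes. The changes of any pair of mice correlated across genes with r of 0.857 to 0.913, and the median change of the 410 rising genes was 1.65, 1.68, 1.57 and 1.55 in mice 25, 69, 87 and 88. In 180 of these 410 genes, 43.9%, mice 25 and 69 both changed by more than mice 87 and 88, against 29.0% of the genes tested, and in 57, 13.9%, both changed by less, against 23.4%. *Kdm6b*, *Tnfaip3*, *Nfkbiz* and *Il10* were of the former kind and *Nfkbia* and *Ifnb1* of the latter. In 46 of the 198 falling genes, 23.2%, mice 25 and 69 both fell further than mice 87 and 88, near the 23.4% over all genes tested. Both fell less in 20, 10.1%, against 29.0%. Mice 87 and 88 shared a cage but not a batch, and the cause of the split was not tested. Within batch 1 alone, with 2 mice, 621 genes changed at least 2-fold, and within batch 2 alone 615.

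The structure of the genes, which their choice did not use, was then described by class of change. The 410 genes at least 2-fold higher had a median span of 12.8 kb from start to end (390 located in RefSeq), against 21.4 kb over all genes tested, and 43.6% of them were under 10 kb, against 27.4%. The 198 genes at least 2-fold lower were short as well, with a median of 10.8 kb (170 located), while genes that were not called had a median of 25.6 kb. In the transcript with the longest 3′-UTR (GENCODE vM21) the rising genes had a median of 5 exons against 8 over all genes, and 18.5% of them had 1 or 2 exons against 7.09%. *Ifnb1* has 1 exon and *Ier3* and *Zfp36* have 2. Of 357 rising genes with an annotated 3′-UTR, 46.5% held at least 1 copy of the ARE core TATTTAT, against 29.4% of 11927 genes in all, and 22.7% held 2 or more against 10.5%. The median 3′-UTR was 1165 bases long in the rising genes and 1334 over all, and per kb there were 0.637 cores against 0.262. The 114 genes with a rise of at least 2 and an annotated 3′-UTR held 1.10 cores per kb. *Csf2* held 9 cores, *Tnf* 8, *Cxcl2* 7, *Cxcl1* 6 and *Zfp36* 3. CPEs, here TTTTAT or TTTTAAT, were found in 65.0% of the rising genes and 61.8% of all, at 1.36 and 1.21 per kb, so the rising genes differed less from the others in CPEs than in AREs. Both elements together were in 38.1% of the rising genes and 25.1% of all. Of the genes at least 2-fold lower only 67.7% had an annotated 3′-UTR, which makes the same comparison void for them. These are shares of genes, without a test.

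**Figure D4:**
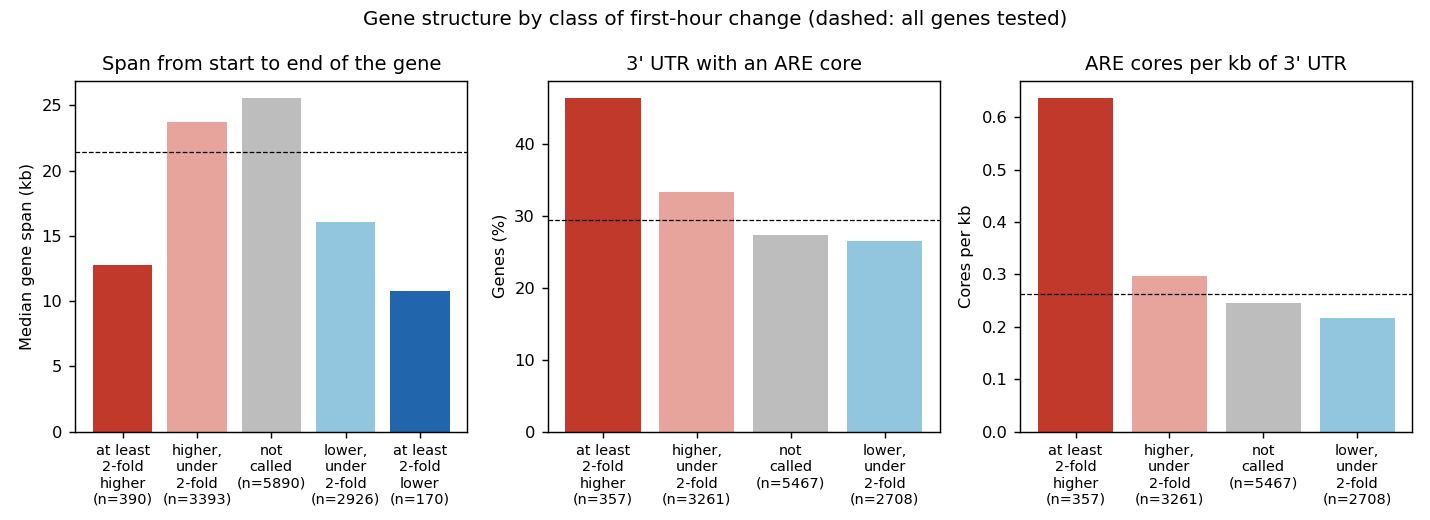
Bars are the median gene span in kb (left), the percent of genes whose longest 3′-UTR holds an ARE core (middle) and the ARE cores per kb of 3′-UTR (right) in classes of first-hour change, with the number of genes under each bar and the value over all genes as a dashed line. Both classes past 2-fold are short (12.8 and 10.8 kb), and the class at least 2-fold higher stands above the others in AREs (46.5% and 0.637 per kb).

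The same hour was compared in *Cpeb4*-/- BMDMs, which share no library with the WT cells. The mean rlog of *Cpeb4*, counted over the whole gene, was 7.48 ± 0.44 (SD, n = 4) in untreated and 9.01 ± 0.55 in treated libraries labelled *Cpeb4*-/-, against 7.71 ± 0.48 and 8.64 ± 0.89 in WT, so at these times it does not check the genotype labels. Of the 409 WT rising genes tested in *Cpeb4*-/- cells 408 were called higher there too, 377 at least 2-fold, and the median change was 1.62 in WT and 1.64 in *Cpeb4*-/- cells. Of 196 falling genes 195 were lower in both, 146 at least 2-fold. Over all 13137 genes tested in *Cpeb4*-/- cells 3985 were higher, 438 of them at least 2-fold, and 3257 were lower, 181 of them at least 2-fold. Across the 13043 genes tested in both genotypes the changes correlated with r of 0.951 and Spearman's rho of 0.848, which describes genes, not replicates.

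A test of the difference between the genotypes in the first-hour change, over 16 libraries with the mouse as a block, called 3 of 13108 genes (0.0229%). *Ccl7* rose by 1.94 in WT and 1.36 in *Cpeb4*-/- cells, a change of 0.58 (SE 0.076, limma adjusted p = 0.028). *Cd69*, an early activation marker, rose by 2.05 and 1.70 (difference 0.35, adjusted p = 0.028). *Trp53rka*, a kinase gene with a close paralog that can share its reads, rose by 0.40 in WT and differed by −0.03 in *Cpeb4*-/- cells (difference 0.43, adjusted p = 0.043). The count rests on single mice: it was 1415 without *Cpeb4*-/- mouse 2, 23 without WT mouse 69, 5 without WT mouse 88 and 0 without *Cpeb4*-/- mouse 3 or 62 or WT mouse 25 or 87. It was also 0 in limma without the block, and without the expression filter none of the 3 genes was called, with adjusted p of 0.415 for *Ccl7*, 0.0859 for *Cd69* and 0.222 for *Trp53rka*. With the block and the filter, 2416 genes (18.4%) had an unadjusted p under 0.05. The 3 calls therefore do not show that the other genes changed alike in the 2 genotypes. The next genes by p were *Apold1*, which rose by 2.27 in WT and 0.85 in *Cpeb4*-/- cells, and *Ptgs2*, which rose by 2.33 and 2.83, with adjusted p of 0.070 and 0.11. The ribosomal protein median was 0.033 in *Cpeb4*-/- cells against 0.20 in WT, but mouse by mouse the genotypes overlapped, from −0.039 to 0.17 and from 0.066 to 0.33.

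**Figure D5:**
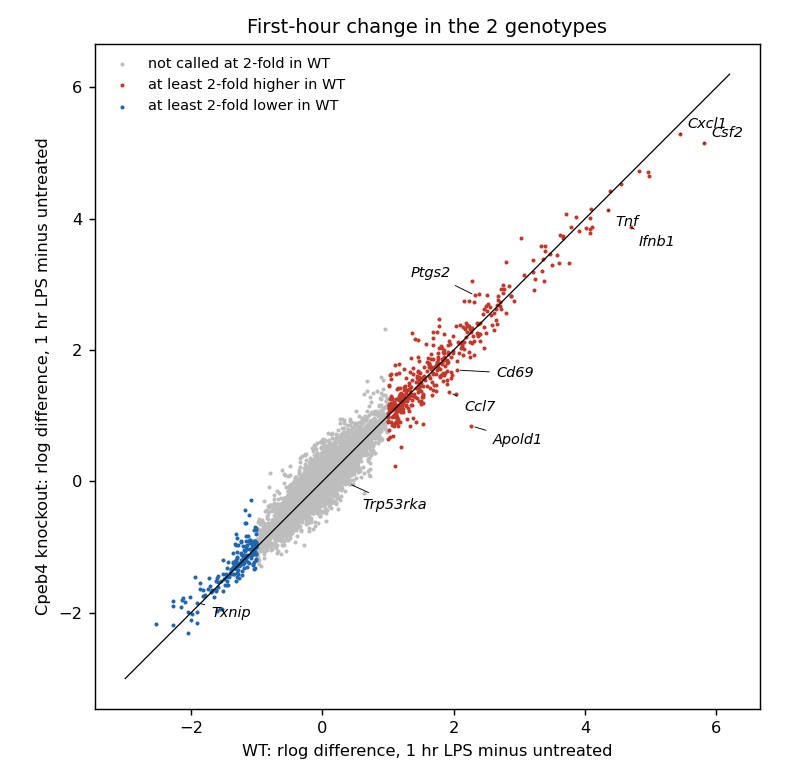
rlog difference, 1 hr LPS minus untreated, in WT (x axis) and in *Cpeb4* knockout BMDMs (y axis), for 13043 genes, coloured by the 2-fold call in WT, with the line of equal change. Points follow the line (r of 0.951), and *Ccl7*, *Cd69* and *Trp53rka*, the 3 genes called for a difference in change, lie below it.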

How the data were processed

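Poly(A) RNA libraries were made with 8 cycles of amplification. Per the submitters' processing notes and the study's methods, reads were aligned to mm10 with STAR 2.3.0e and counted with featureCounts, and the authors deposited DESeq2 rlog values, a log2 scale. No raw counts are used here, so depth is unknown. Columns were matched to samples by genotype, time and mouse number.

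Differences were tested with limma 3.58.1 in R 4.3.3 (lmFit, eBayes with trend), with the mouse as a fixed block and Benjamini-Hochberg adjustment over all genes that passed the mean rlog filter of log2 of 5. The labels give 1 mouse all its times, and deviations from the group means correlated at 0.378 to 0.770 within a mouse. The interaction used 16 libraries. The fits were tested on simulated data.

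Named genes were the 10 largest rises and falls (no predicted genes), a set of key genes, the largest differences of each list in both directions and the 5 smallest interaction p-values. Further list members were named after their values were seen. The members and lists were chosen with earlier results of these data known. Alternatives were no block, other filters, eBayes without trend or robust, quantile normalization, centring on the median, all 20 WT libraries, each batch alone and leaving out each mouse. Gene spans and promoters are RefSeq (GRCm38.p6), located for 12769 genes tested, and 3′-UTRs GENCODE vM21. Figures were drawn with matplotlib 3.10.9.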

Additional observations from a re-analysis of the deposited data

Results flagged for a closer look

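In 10 of 306 groups of 4 libraries of the named genes, 1 library stood apart from the other 3 by Dixon's criterion, where chance gives about 1 in 20. Among untreated libraries, *Atf3* was at 12.92 in mouse 25 against 13.14 to 13.18 in the others, *Rgs2* at 11.88 in mouse 25 against 12.09 to 12.13, and *Cd83* at 11.43 in mouse 25 against 11.53 to 11.55. *Il10* was at 8.759 in mouse 69 against 8.943 to 8.966, and *Dusp6* at 10.01 in mouse 88 against 10.11 to 10.13. After 1 hr of LPS, *Otud1* was at 9.377 in mouse 69 against 9.051 to 9.077, and *Ptger2*, also in mouse 69, at 7.641 against 7.187 to 7.249. In mouse 87 *Arg2* was at 7.02 against 7.407 to 7.473, *Cycs* at 6.219 against 5.93 to 5.972, and a gene without a symbol at 5.222 against 4.799 to 4.867.

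The first-hour change differed between WT and *Cpeb4*-/- cells, by the interaction term in limma, in *Ccl7* by 0.5805, in *Trp53rka* by 0.4254 and in *Cd69* by 0.351, each a larger rise in WT. None of these genes was called without the mouse as a block, without the trend in eBayes or without the expression filter.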

How the results depend on the processing

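The count of genes called was 7069 with the mouse as a block (3854 higher and 3215 lower) and 3844 without the replicate block, and the other alternatives stayed within 1.5 times the former, from 4963 to 7357. Leaving out each mouse in turn gave 5552 to 7067. At least 2-fold, the count of 608 ranged from 449, with a mean rlog of at least 5, to 652 without a filter, and from 585 to 629 leaving out each mouse. The interaction count of 3 was 0 without the replicate block and 0 with eBayes without trend, was made up of other genes without the expression filter (1 higher and 2 lower), and ran from 0 to 1415 leaving out each mouse, the latter without *Cpeb4*-/- mouse 2. Of 153 named genes tested, 132 kept direction and side of the threshold under each of the 14 alternatives that tested them. Some genes did not pass the filter of an alternative, and such cases were left out. After quantile normalization the sign changed in *Csf1r*, from 0.1065 to −0.3821 (limma adjusted p = 5.9e-06 after it). It also changed in *Cox4i1*, from 0.2099 (limma adjusted p = 0.0071) to −0.1213 (limma adjusted p = 0.086). In genes that were not called the sign changed after centring in *Il4ra* (0.003213) and *Ndufs3* (0.01131). In batch 1 alone it changed in *Cpeb1* (0.005473) and *Ndufs3* (0.04864), and in batch 2 alone in *Elf1* (0.04036) and *Il4ra* (0.005619). Leaving out each mouse, *Ndufs3* ran from −0.04671 to 0.02535, *Il4ra* from −0.05223 to 0.005411 and *Elf1* from −0.07332 to 0.01987. The cause was not tested. Since the rlog scale moderates genes with few counts, fold changes of genes low in untreated cells are understated, and without counts the depth behind a value is unknown. An exact test over 4 pairs cannot go below p = 0.125, so calls rest on limma's pooled spread.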

Other observations

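A few further genes, named after their values were seen, belonged to none of the lists. The heat shock genes *Hspa1a* and *Hspa1b*, close paralogs whose reads may be shared, rose by 2.35 and 2.25 in limma (adjusted p under 0.05 in both). *Nlrp3*, which encodes the inflammasome sensor, rose by 2.73. The plasminogen activator gene *Plat* rose by 3.78. *Sele*, the gene of E-selectin, best known from activated endothelium, rose by 3.87.

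Among the falls, the long noncoding RNA *Neat1*, the scaffold of paraspeckles, moved from a mean of 15.25 to 14.12, a difference of −1.13. The Polycomb subunit gene *Cbx8* fell by 1.51. Genes without a curated symbol (predicted genes, Riken clones, pseudogenes and genes with an identifier only) made up 44 of the 410 genes at least 2-fold higher and 67 of the 198 at least 2-fold lower. Their share over all genes tested was not counted, so these counts are not read as a trait of either class.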
